A study of Paralichthys olivaceus with 6 samples.

Results

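The genes of the mitochondrial ribosomal proteins were described in the hindbrain of the olive flounder, Paralichthys olivaceus, a flatfish raised for food. Members were the genes whose identifier starts with mrpl or mrps followed by a number, and 72 of 24395 genes in the count tables met this rule, 44 named for the large subunit (mrpl) and 28 for the small subunit (mrps). The study compared fish of bold and of shy personality, with 3 libraries titled bold and 3 titled shy, all from fish kept at 18 °C that weighed 101.06 ± 6.39 g (SD). In each library the personality characteristic names the other group than the title does. The libraries fall into the same groups by either label, so if the titles are wrong, every direction given here is inverted. The hindbrain RNA came from 6 fish, per the labels, and how these fish map to libraries is not stated, so a p-value reflects variation among libraries alone. Genotype, age and sex are not given by the labels.

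Mitochondria keep their own ribosome, the mitoribosome, which translates the few messages of mitochondrial DNA into core subunits of the respiratory chain and ATP synthase. Its ribosomal RNA comes from mitochondrial DNA, while all of its proteins are encoded in the nucleus, made in the cytosol and imported. Some of these proteins descend from bacterial ribosomal proteins and others were added during the evolution of mitochondria. Neurons depend on respiration, and loss of single mitoribosomal proteins in humans causes disorders that often affect the brain, heart or liver.

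All 72 members passed the filter on low counts, with between 76 and 1573 reads per gene and library, so that counting error alone lay between 2.52% and 11.5% of a value. Library totals lay between 18081694 counts, in titled bold 2, and 22805563 counts. CPM, the unit of level here, is a count scaled to a common library size with TMM factors. CPM is not divided by transcript length, so levels are compared here between libraries and between groups of libraries, not between genes. Neuron markers were plentiful, with between 7499 and 10724 summed CPM, while 9 of 16 genes of the hindbrain position list did not pass the filter and 2, hoxb2 and hoxb4, had no read. Of 12 genes of the forebrain position list 5 passed. All 12 together summed to between 75.0 and 89.5 CPM per library. Most of this sum came from six3 and nkx2-1, at mean levels of 46.0 and 29.4 CPM. All 16 hindbrain position genes together, of which 7 passed, summed to between 101 and 122 CPM per library. Skeletal muscle markers summed to between 5.63 and 10.3 CPM. In bulk tissue, fewer cells of a type and less RNA per cell cannot be told apart.

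Together the members took a small share of all reads, which was largest in titled bold 2. The 72 genes summed to 1514, 1931 and 1705 CPM in titled bold 1, 2 and 3, against 1518, 1616 and 1576 CPM in titled shy 1, 2 and 3. Titled bold 2 was the highest library and titled bold 1 the lowest, so the groups overlapped. The mean was 1717 ± 209 CPM in the titled bold group and 1570 ± 49.7 CPM in the titled shy group (SD, n = 3 each). The share of all counts lay between 0.156% and 0.184% per library.

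Titled bold 2 had the highest sum of both subunits. Large subunit members summed to 925, 1145 and 1032 CPM in titled bold 1, 2 and 3, against 897, 965 and 950.0 CPM in titled shy 1, 2 and 3. For the small subunit the sums were 589, 786 and 673 CPM in titled bold 1, 2 and 3, against 620.3, 651 and 626 CPM in titled shy 1, 2 and 3. The small subunit thus had its lowest and its highest sum in the same group. The ratio of large to small subunit sums was 1.57, 1.46 and 1.53 in titled bold 1, 2 and 3, against 1.45, 1.48 and 1.52 in titled shy 1, 2 and 3, with overlapping groups and means of 1.52 ± 0.0597 and 1.48 ± 0.0354 (SD, n = 3 each).

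Names and positions in the ribosome differ for a few members. In the human mitoribosome the proteins of MRPS30 and MRPS18A sit in the large subunit despite their names, and the product of MRPS36 is now known as a subunit of the 2-oxoglutarate dehydrogenase complex. Placed by the human structure, 46 members belonged to the large and 25 to the small subunit. The ratio of sums was then 1.79 ± 0.0888 in libraries titled bold and 1.76 ± 0.0382 in libraries titled shy (SD, n = 3 each), again with overlapping groups. The gene mrps30 had 15.7 ± 0.283 CPM in the titled bold group and 15.1 ± 2.22 CPM in the titled shy group, and mrps18a had 26.3 ± 2.48 against 24.8 ± 0.844 CPM. Its paralogs mrps18b and mrps18c, whose products sit in the small subunit, had 30.8 ± 4.24 against 31.1 ± 2.35 CPM and 30.5 ± 7.49 against 28.5 ± 3.37 CPM. For mrps36 the values were 37.8 ± 5.22 and 38.0 ± 4.06 CPM.

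**Figure D1:**
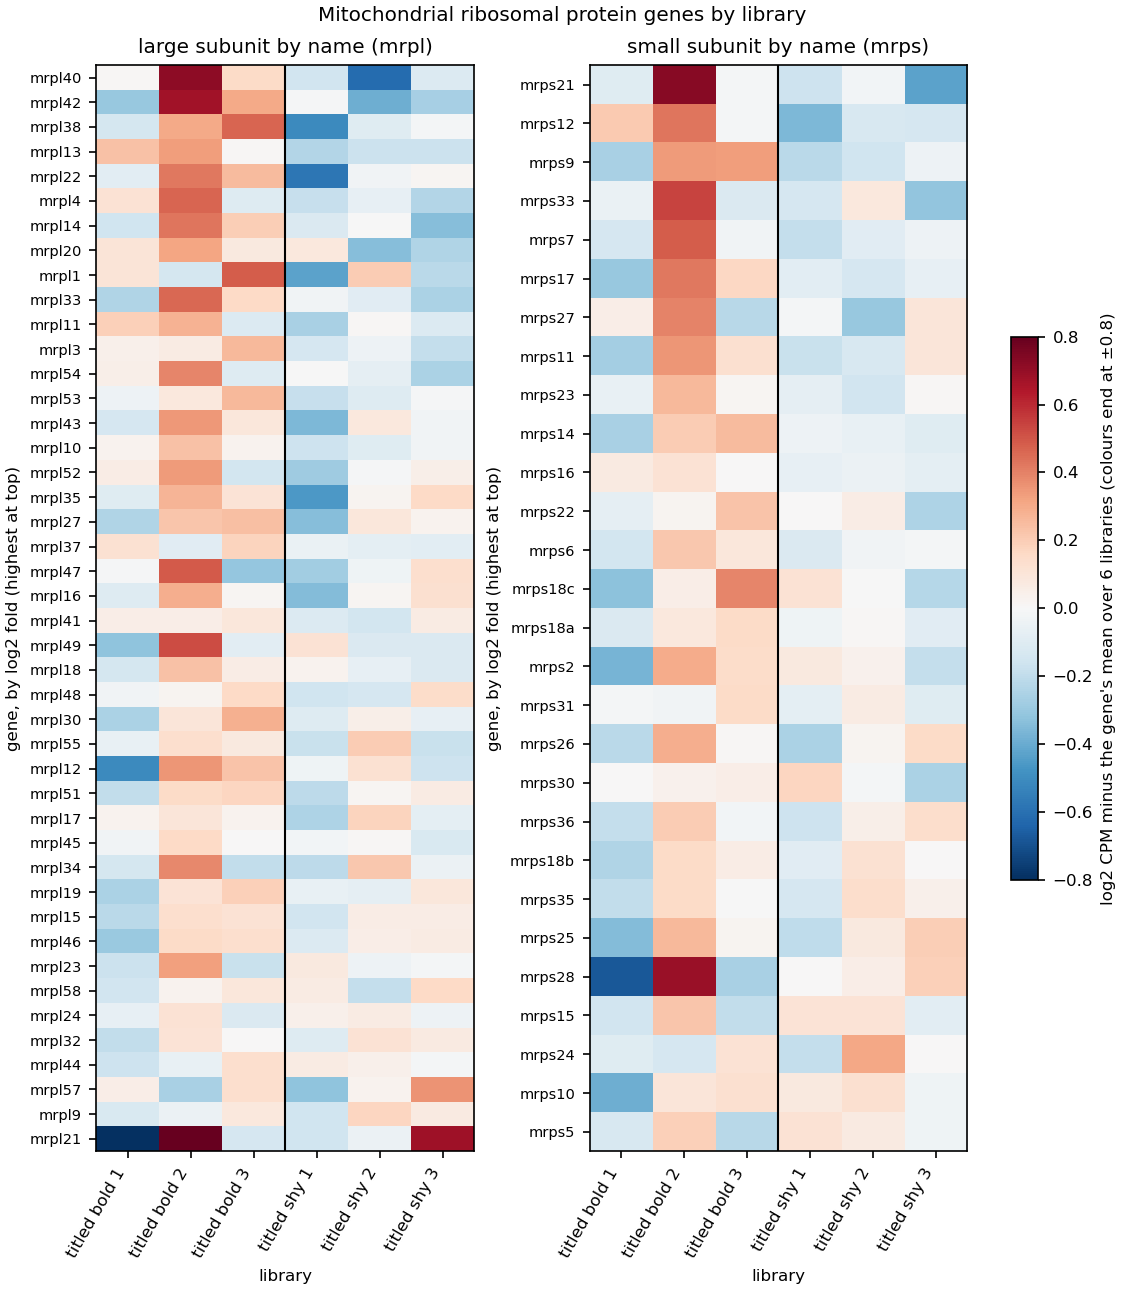
Colour shows each member's log2 CPM in a library minus its mean over the 6 libraries, with genes in rows, ordered within each subunit by log2 fold, and libraries in columns, titled bold left of the line and titled shy right of it. The column of titled bold 2 is red for most genes: 65 of 72 members were above their own mean there, against 18 in titled bold 1.

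Deviations from each gene's own mean showed how evenly the members moved between libraries. In titled bold 1, 2 and 3, 18, 65 and 52 of 72 members lay above their own mean over the 6 libraries, against 15, 35 and 27 in titled shy 1, 2 and 3. Over all 19755 tested genes this share was between 49.0% and 54.2% in each library. Titled bold 2 was the highest of the 6 libraries in 46 members, or 63.9%, while it was highest in 25.4% of all tested genes and lowest in 29.3%. Titled bold 1 was the highest library of 0 members and the lowest of 24, and titled shy 1 was the lowest of 23. The mean deviation over members, on the log2 CPM scale, was -0.13, 0.24 and 0.07 in titled bold 1, 2 and 3, against -0.13, -0.02 and -0.04 in titled shy 1, 2 and 3.

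Titled bold 2 stood apart in some other measures as well. It had the lowest total count, and its summed neuron markers were 10724 CPM against 7499 to 8250 CPM in the other 5 libraries, with 7 of 14 tested markers highest there, among them snap25 and stmn2, and 4 lowest there, among them elavl3 and gad1. Oligodendrocyte markers summed to 4387 CPM there and to between 2263 and 2720 CPM elsewhere, with 6 of 8 highest and 1 lowest there. The sum of radial glia and astrocyte markers was lowest there, at 4443 CPM against 4625 to 6307 CPM. Of 7 tested markers 2 were lowest there, as many as in titled bold 1. These 2 were slc1a2, at 99.9 CPM against 335 to 593 CPM elsewhere, and s100b, at 1337 CPM against 1479 to 2689 CPM. The sum of microglia markers was 284 CPM there against 361 to 762 CPM, with 2 of 6 lowest there, as many as in titled bold 3 and titled shy 3. For microglia markers the library that stood apart was titled shy 2, at 762 CPM and highest in 6 of 6. Forebrain position genes had a mean deviation of 0.58, -0.91 and -1.07 in titled bold 1, 2 and 3, against 1.04, 0.71 and -0.35 in titled shy 1, 2 and 3 (log2 CPM). The low means in titled bold 2 and 3 came from emx2, fezf2 and six6, whose mean levels were 1.63, 1.62 and 3.28 CPM. In titled bold 1, 2 and 3 six6 had 4.97, 0.290 and 0.0997 CPM, against 6.92, 4.99 and 2.41 CPM in titled shy 1, 2 and 3. In the same order fezf2 had 2.25, 0.349 and 0.399 against 4.01, 2.30 and 0.426 CPM. For emx2 the levels were 2.39, 0.581 and 0.548 against 3.66, 2.25 and 0.379 CPM. The more abundant six3 was highest in those libraries, at 53.3 and 50.6 CPM, while nkx2-1 had 25.2 and 28.4 CPM there. By summed CPM, which came mostly from six3 and nkx2-1, titled bold 1 was the lowest library, at 75.0 CPM. The list thus did not move as a whole. None of the markers found for these 5 lists was at 0 over all libraries. Their part in the level of the mitoribosomal genes was not tested.

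Between the titled groups, bold over shy, 0 of 72 members were called by edgeR's quasi-likelihood test at a Benjamini-Hochberg adjusted p under 0.05, where 0 of all 19755 tested genes (0%) were called. The smallest adjusted p of a member was 0.955. At an unadjusted p under 0.05, 3 members passed, mrpl13, mrpl40 and mrps12, each with a log2 fold above 0, against 3.49% of all tested genes, or 1.74% for folds above 0. DESeq2 had 4 members at an unadjusted p under 0.05, against 3.86% of all tested genes, and called 0 members, where it called 0.0607% of all tested genes, with a smallest adjusted p of 0.922 among members. In limma-voom 3 members had an unadjusted p under 0.05, against 3.63% of all tested genes, and 0 were called. With edgeR the count at an unadjusted p under 0.05 was 11 without titled bold 1, where 12.0% of all genes tested passed, and 1 without titled shy 2, where 3.11% passed.

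The folds of the members leaned to one side. Of 72 members, 56 had a log2 fold above 0 and 16 below, or 77.8% above, where 48.3% of all tested genes lay above 0. The lean was not particular to members. Of 50 nuclear genes of the respiratory chain and ATP synthase 80% lay above 0, and of 69 cytosolic ribosome genes 42%. The median log2 fold was 0.13 for the 44 large subunit members, with 37 above 0 and 7 below, and 0.09 for the 28 small subunit members, with 19 above 0 and 9 below. Over all tested genes it was -0.01. Folds ran between -0.10 for mrps5 and 0.60 for mrpl40, and the median SE of a member's fold was 0.17. Without titled bold 2 the medians were 0.07 and 0.03, and 46 members lay above 0 and 26 below. That was 63.9% above, against 48.8% of all tested genes, 68% of the respiratory chain genes and 34.8% of the cytosolic ribosome genes. Without titled bold 1 the medians were 0.23 and 0.20, with 68 members above 0 and 4 below. That was 94.4% above, against 50.1% of all tested genes. Titled bold 2 was the highest library in 46 members, so leaving it out was bound to lower most folds. The folds of single genes given below without titled bold 2 share this limit. The part of titled bold 2 in the lean was not tested.

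**Figure D2:**
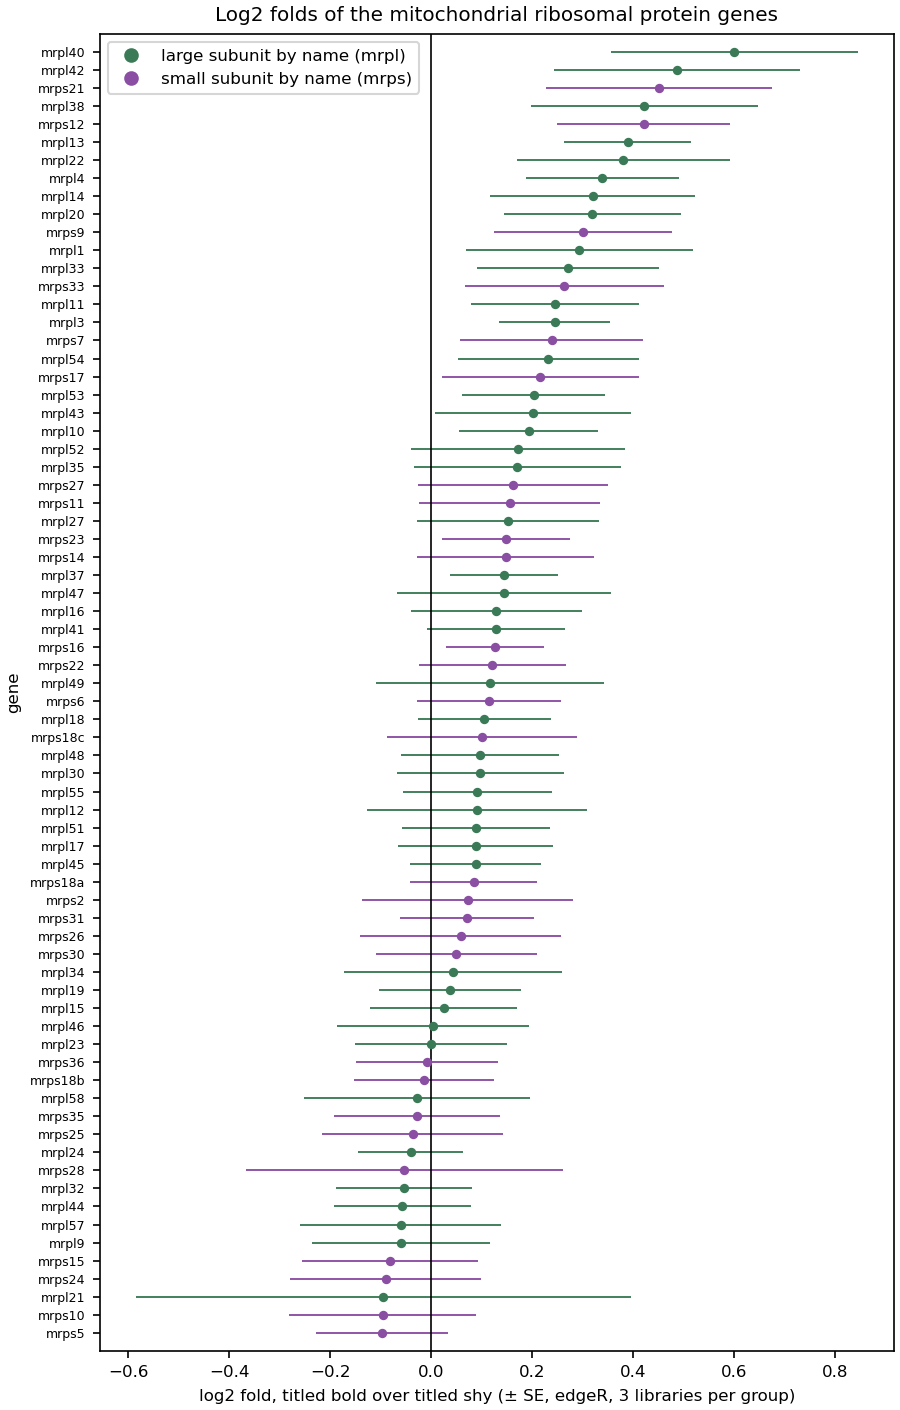
Points are log2 folds of all 72 members, titled bold over titled shy, with bars of 1 SE from edgeR (3 libraries per group), in green for the large and purple for the small subunit by name. Most points lie right of 0, 56 of 72, and no fold was called across all genes.

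In 6 members, mrpl3, mrpl10, mrpl13, mrpl40, mrps12 and mrps16, the groups did not overlap, each time with the libraries titled bold above, and in 0 members were they below. These 6 are 8.33% of the members, where 9.53% of all tested genes did not overlap and 4.53% did so with the libraries titled bold above and 5% with them below. With both directions pooled the share of members was near that of all genes. By direction it was not, at 8.33% above and 0% below. Members moved together between libraries, with 65 of 72 above their own mean in titled bold 2, so these counts are not independent observations.

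The member with the smallest p was mrpl13, which encodes a large subunit protein with a bacterial homolog. It had 34.0, 36.5 and 29.1 CPM in libraries titled bold 1, 2 and 3, against 24.5, 25.7 and 25.7 CPM in libraries titled shy 1, 2 and 3. All 3 libraries titled bold were above all 3 titled shy, and those titled shy lay within a narrow range. Its log2 fold was 0.39 ± 0.13 (SE), with an edgeR adjusted p of 0.955, and it was 0.32 without titled bold 2.

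Within the central protuberance, the crown of the large subunit near the bound tRNAs, mrpl40 and mrpl38 had the largest folds. For mrpl40 the levels were 10.3, 16.8 and 11.4 CPM in libraries titled bold 1, 2 and 3, against 9.17, 6.67 and 9.46 CPM in libraries titled shy 1, 2 and 3. The groups did not overlap, but titled bold 1 was close to the highest library titled shy. Its fold was 0.60 ± 0.24 on the log2 scale, 0.36 without titled bold 2 and 0.76 without titled bold 1. The gene mrpl38 had 9.51, 13.0 and 14.5 CPM in libraries titled bold 1, 2 and 3, against 7.36, 9.81 and 10.4 CPM in libraries titled shy 1, 2 and 3, a log2 fold of 0.42 ± 0.22 with overlapping groups. Of the other central protuberance genes, mrpl18, mrpl46 and mrpl48 had log2 folds of 0.11, 0.00 and 0.10, and of 0.01, -0.07 and 0.11 without titled bold 2. The gene mrpl58, which encodes a peptidyl-tRNA hydrolase built into the large subunit, had 5.77 ± 0.504 CPM in the titled bold group and 5.88 ± 0.721 CPM in the titled shy group.

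A second entry bears on mrpl40. The identifier LOC109623813 carries the gene number that the RefSeq annotation of assembly ASM2471397v2 names mrpl40, so the count tables hold 2 entries with this name and reads may have been divided between them. LOC109623813 had 20.4, 20.4 and 21.6 CPM in libraries titled bold 1, 2 and 3, against 15.4, 14.5 and 18.0 CPM in libraries titled shy 1, 2 and 3. Its groups did not overlap either, and its log2 fold was 0.38 ± 0.14, with an unadjusted edgeR p of 0.0267 and an adjusted p of 0.955. Unlike mrpl40, it had nearly equal levels in the 3 libraries titled bold, and its fold without titled bold 2 was 0.39.

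**Figure D3:**
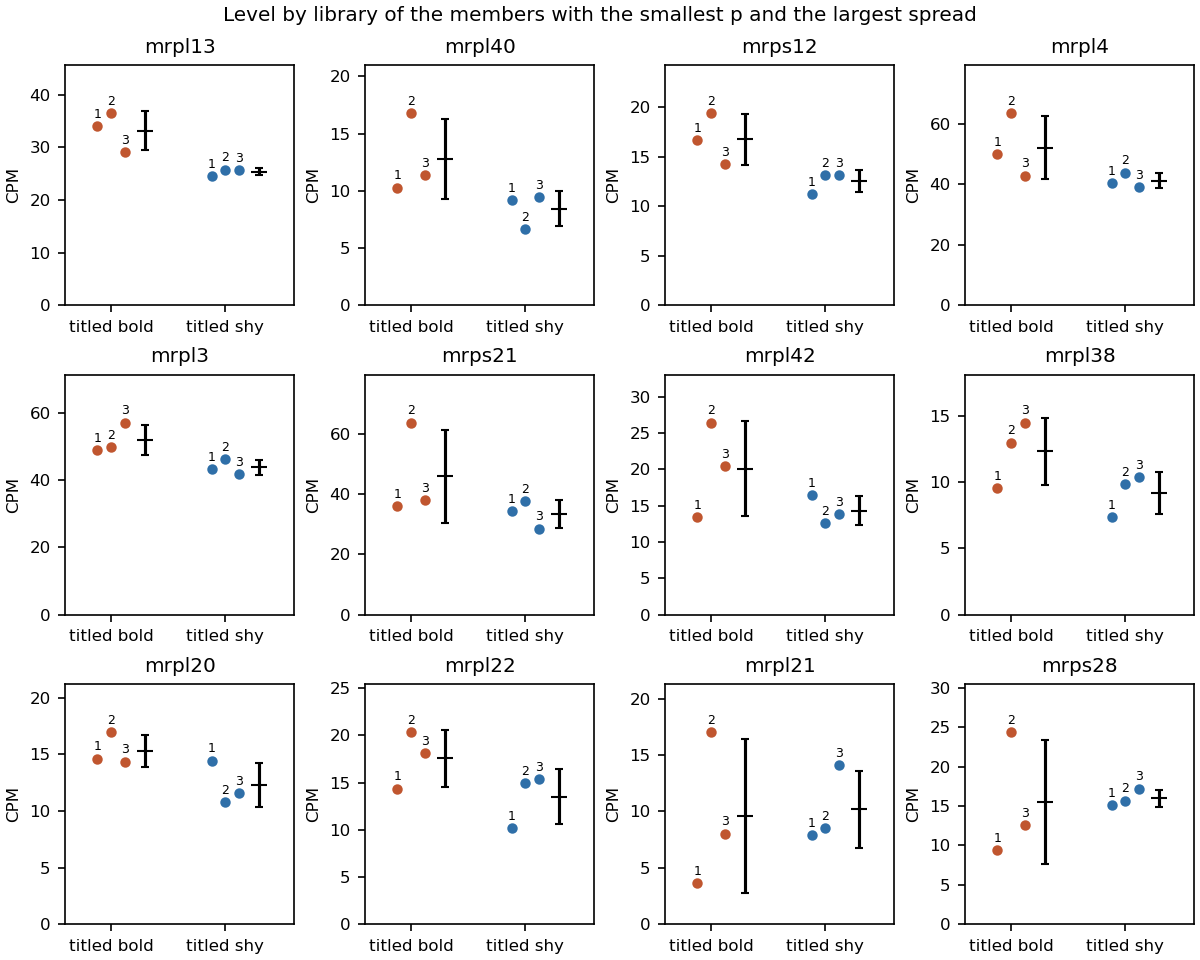
Each panel shows 1 gene, with CPM on an axis that starts at 0 and library numbers beside the points, titled bold in orange and titled shy in blue, and black marks for the mean and SD of 3 libraries. The first 10 panels hold the members with the smallest p, and mrpl21 and mrps28 complete the 5 with the largest spread, of which mrpl40, mrpl42 and mrps21 are among the 10. For mrpl21 the libraries titled bold run between 3.63 and 17.0 CPM.

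The exit tunnel, through which the growing protein leaves the large subunit, is represented by 8 members, of which 6 had a fold above 0. Their median log2 fold was 0.09, and it changed sign to -0.04 without titled bold 2, the highest library in 46 of 72 members. For the groups by role, medians without another library were not computed. The gene mrpl4, whose bacterial homolog lines the tunnel, had 49.8, 63.4 and 42.8 CPM in libraries titled bold 1, 2 and 3, against 40.4, 43.8 and 39.1 CPM in libraries titled shy 1, 2 and 3. Titled bold 2 was far above the rest and the groups overlapped, and the log2 fold was 0.34 ± 0.15, and 0.17 without titled bold 2. For mrpl22, another tunnel protein, the values were 14.3, 20.3 and 18.1 CPM in libraries titled bold 1, 2 and 3, against 10.2, 14.9 and 15.4 CPM in libraries titled shy 1, 2 and 3. Its log2 fold was 0.38 ± 0.21, and 0.27 without titled bold 2, again with overlapping groups. At the rim of the tunnel, mrpl23 had equal means, 56.0 ± 11.8 CPM in the titled bold group and 56.0 ± 2.47 CPM in the titled shy group. The gene mrpl24 had 65.5 ± 5.66 against 67.4 ± 2.65 CPM, and mrpl45, whose human protein helps to hold the ribosome at the inner membrane, had 21.4 ± 1.54 against 20.1 ± 0.938 CPM.

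Near the catalytic core, mrpl3 had 48.9, 49.8 and 57.1 CPM in libraries titled bold 1, 2 and 3, against 43.4, 46.3 and 41.8 CPM in libraries titled shy 1, 2 and 3. The groups did not overlap, and the highest library was titled bold 3. Its log2 fold was 0.25 ± 0.11, and 0.27 without titled bold 2. The core proteins of mrpl16 and mrpl27 had log2 folds of 0.13 and 0.15, and of 0.01 and 0.08 without titled bold 2. The stalk proteins of mrpl10 and mrpl12 recruit translation factors to the ribosome. For mrpl10 the means were 19.5 ± 1.66 CPM in the titled bold group and 17.0 ± 0.812 CPM in the titled shy group. The gene mrpl12 had 17.3, 31.4 and 28.8 CPM in libraries titled bold 1, 2 and 3, against 24.0, 26.7 and 21.9 CPM in libraries titled shy 1, 2 and 3, with the lowest and highest value both among libraries titled bold. The log2 folds of mrpl10 and mrpl12 were 0.19 and 0.09, and 0.12 and -0.07 without titled bold 2.

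Other large subunit members with small p-values were mrpl42 and mrpl20. The mitochondria-specific gene mrpl42 had 13.4, 26.4 and 20.4 CPM in libraries titled bold 1, 2 and 3, against 16.5, 12.6 and 13.8 CPM in libraries titled shy 1, 2 and 3, a log2 fold of 0.49 ± 0.24. Titled bold 1 lay among the libraries titled shy, and the fold was 0.24 without titled bold 2. The gene mrpl20, with a bacterial homolog, had 14.6, 17.0 and 14.4 CPM in libraries titled bold 1, 2 and 3, against 14.5, 10.8 and 11.5 CPM in libraries titled shy 1, 2 and 3. Titled shy 1 lay among the libraries titled bold, and the log2 fold was 0.32 ± 0.17.

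In the small subunit, mrps12 encodes the protein of the decoding centre, where codon and tRNA are matched. It had 16.7, 19.4 and 14.3 CPM in libraries titled bold 1, 2 and 3, against 11.2, 13.2 and 13.2 CPM in libraries titled shy 1, 2 and 3. The groups did not overlap, the log2 fold was 0.42 ± 0.17 and the edgeR adjusted p 0.955, and the fold was 0.31 without titled bold 2. The genes mrps5 and mrps24, whose bacterial homologs line the path by which mRNA enters, had log2 folds of -0.10 ± 0.13 and -0.09 ± 0.19. Without titled bold 2 these folds were -0.23 ± 0.11 and -0.04 ± 0.20. With all 6 libraries both lay within 1 SE of 0. A direction was not established for mrps5, mrps24 or mrps12.

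On the platform and body of the small subunit, 6 of 7 members had a fold above 0, with a median of 0.13, and of 0.04 without titled bold 2. The gene mrps21 had 35.9, 63.7 and 38.1 CPM in libraries titled bold 1, 2 and 3, against 34.3, 37.8 and 28.5 CPM in libraries titled shy 1, 2 and 3. Titled bold 2 was the highest library by a wide margin, and the log2 fold was 0.45 ± 0.22 with it and 0.14 without it. Without titled bold 1 the fold was 0.62. The gene mrps16 was even across libraries, at 49.7, 51.1 and 47.3 CPM in libraries titled bold 1, 2 and 3, against 45.2, 45.7 and 44.7 CPM in libraries titled shy 1, 2 and 3. Its groups did not overlap, yet the log2 fold was only 0.13 ± 0.10. In the head, mrps9 had 21.9, 33.2 and 33.1 CPM in libraries titled bold 1, 2 and 3, against 22.6, 23.5 and 25.5 CPM in libraries titled shy 1, 2 and 3, so that titled bold 1 was the lowest library and the others titled bold the highest. Of the other head genes, mrps7, mrps10 and mrps14 had log2 folds of 0.24, -0.10 and 0.15, and of 0.03, -0.17 and 0.09 without titled bold 2.

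**Figure D4:**
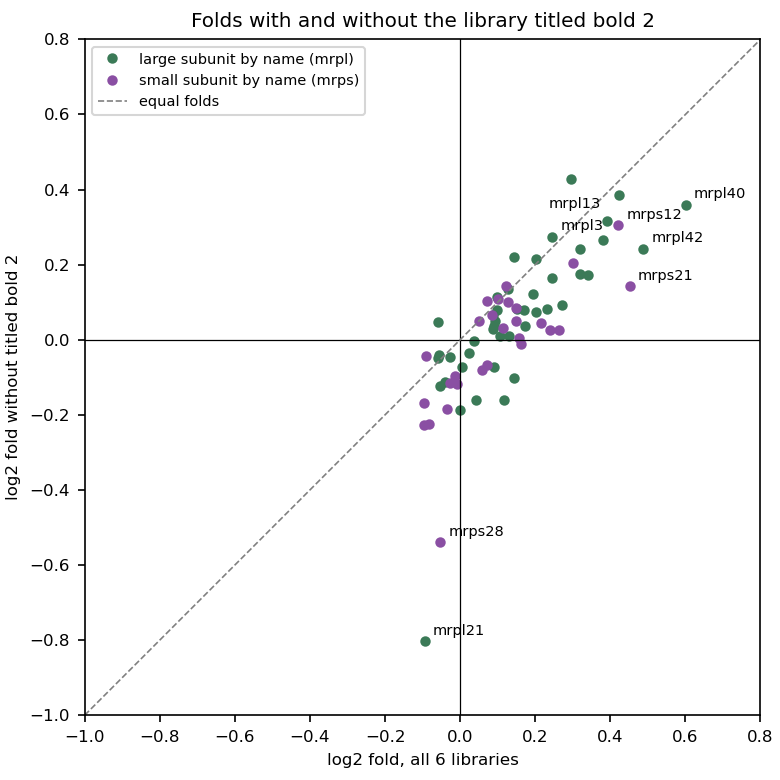
Each point is a member, with its log2 fold from all 6 libraries on the horizontal axis and its fold without titled bold 2 on the vertical axis; the dashed line marks equal folds. Most points fall under the line, the median without titled bold 2 is 0.05, and mrps28 and mrpl21 lie far below at -0.54 and -0.80.

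Members differed in how much they varied. The median SD of log2 CPM over the 6 libraries was 0.20 for members and 0.24 for all tested genes. Among members, mrps16, mrpl24, mrpl45, mrps31 and mrpl41 had the smallest SDs, between 0.08 and 0.10. The largest were those of mrpl21, mrps28, mrpl40, mrpl42 and mrps21, between 0.39 and 0.77. Members with a bacterial homolog had a median SD of 0.23, against 0.16 for mitochondria-specific members, over 43 and 28 genes.

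The 2 most variable members had similar group means. The gene mrpl21 had 3.63, 17.0 and 8.03 CPM in libraries titled bold 1, 2 and 3, against 7.89, 8.53 and 14.1 CPM in libraries titled shy 1, 2 and 3. For mrps28 the levels were 9.41, 24.4 and 12.6 CPM in libraries titled bold 1, 2 and 3, against 15.1, 15.7 and 17.2 CPM in libraries titled shy 1, 2 and 3. Both were lowest in titled bold 1 and highest in titled bold 2. Without titled bold 2 the log2 folds were -0.80 and -0.54, and mrps28 then had an unadjusted edgeR p of 0.0201, with no member called. Without titled bold 1 the log2 folds of mrpl21 and mrps28 were 0.32 and 0.23. Of the 71 member symbols found in ASM2471397v2, 16 name a gene whose span overlaps a neighbouring gene, among them mrps28, mrpl4 and mrpl20. The symbol mrpl40 is also among the 16, but there it names LOC109623813. The overlap is therefore not shown for the entry mrpl40. How the authors assigned reads of overlapping genes is not stated, so the levels of such genes are uncertain. The neighbours mrps11 and mrpl46 had log2 folds of 0.16 ± 0.18 and 0.00 ± 0.19, and of 0.01 and -0.07 without titled bold 2.

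Genes of 5 mitoribosomal proteins carry other names, and 0 of them had an unadjusted edgeR p under 0.05. The small subunit gene dap3 had 28.6 ± 2.88 CPM in the titled bold group and 27.0 ± 1.75 CPM in the titled shy group, and ptcd3, whose protein has RNA-binding repeats, had 23.4 ± 1.46 against 22.9 ± 2.81 CPM. For chchd1 the means were 9.22 ± 0.764 and 9.04 ± 0.866 CPM, and for aurkaip1 36.6 ± 3.01 and 36.1 ± 1.20 CPM. The large subunit gene gadd45gip1 was more variable, at 23.9, 44.6 and 30.4 CPM in libraries titled bold 1, 2 and 3, against 26.2, 38.4 and 42.4 CPM in libraries titled shy 1, 2 and 3. All 5 folds lay between -0.11 and 0.08 on the log2 scale. The LOC numbers LOC109639497, LOC109645557 and LOC109648251 are named mrps34, mrpl39 and mrpl2 in ASM2471397v2 and had log2 folds of -0.10 ± 0.19, 0.23 ± 0.19 and 0.09 ± 0.22.

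Genes that serve the mitoribosome were set beside it. The mean deviation of 11 mitochondrial translation factors was 0.02, -0.01 and 0.05 in titled bold 1, 2 and 3, against -0.11, -0.04 and 0.08 in titled shy 1, 2 and 3 (log2 CPM). By this mean titled shy 3 was highest, and by the median titled bold 2 and 3 were nearly equal, at 0.125 and 0.122. Titled bold 2 was highest in 5 of the 11 genes and lowest in 3. For mitoribosome assembly genes its mean deviation was highest, at 0.061 against 0.056 in titled shy 3. By the median titled shy 2 was highest there, at 0.068. Titled bold 2 was highest in 9 of these 22 genes and lowest in 3. For the 5 other-named mitoribosomal genes it had the highest mean deviation, 0.13, and was highest in 3 and lowest in 1. Among 18 mitochondrial tRNA synthetase and amidotransferase genes it was highest in 1 and lowest in 6. Of the 11 translation factors, 8 had a fold above 0, with a median of 0.08, and 1, tufm, had an unadjusted p under 0.05. The gene tufm, which encodes the elongation factor that brings tRNA to the mitoribosome, had 79.2, 78.6 and 79.7 CPM in libraries titled bold 1, 2 and 3, against 59.8, 70.5 and 67.2 CPM in libraries titled shy 1, 2 and 3. Its groups did not overlap, the libraries titled bold were almost equal, and the log2 fold was 0.27 ± 0.10 with an edgeR adjusted p of 0.955. The gene mtfmt, for the enzyme that formylates the initiator tRNA, had 7.93 ± 0.222 CPM in the titled bold group and 6.77 ± 0.461 CPM in the titled shy group.

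Among 18 mitochondrial tRNA synthetase and amidotransferase genes, 11 had a fold above 0, with a median of 0.07 and 0 at an unadjusted edgeR p under 0.05. The members with the smallest p were iars2, at 27.5 ± 2.46 CPM in the titled bold group and 32.5 ± 2.51 CPM in the titled shy group, and nars2, at 18.9 ± 3.00 against 15.1 ± 3.64 CPM. For mitoribosome assembly, 14 of 22 genes lay above 0, with a median of 0.07. The rRNA methyltransferase gene nsun4 had 2.46 ± 0.126 CPM in the titled bold group and 3.66 ± 0.308 CPM in the titled shy group, and the GTPase gene mtg2 (LOC109635079 in the files) had 8.48 ± 0.641 against 6.26 ± 0.993 CPM. Of 19 genes of mitochondrial DNA expression, 9 lay above 0, with a median of -0.01, and the smallest p-values belonged to hsd17b10, at 28.1, 39.3 and 30.1 CPM in libraries titled bold 1, 2 and 3, against 22.9, 31.4 and 29.2 CPM in libraries titled shy 1, 2 and 3, and mterf2, at 8.34 ± 0.250 against 9.41 ± 0.432 CPM. Among 9 regulators of nuclear genes for mitochondria, 4 lay above 0, with nrf1 at 38.0 ± 6.44 against 33.5 ± 0.490 CPM and gabpb2a (LOC109644166 in the files) at 6.46 ± 2.01 against 8.72 ± 2.17 CPM. In each of these lists 0 genes were called by edgeR.

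**Figure D5:**
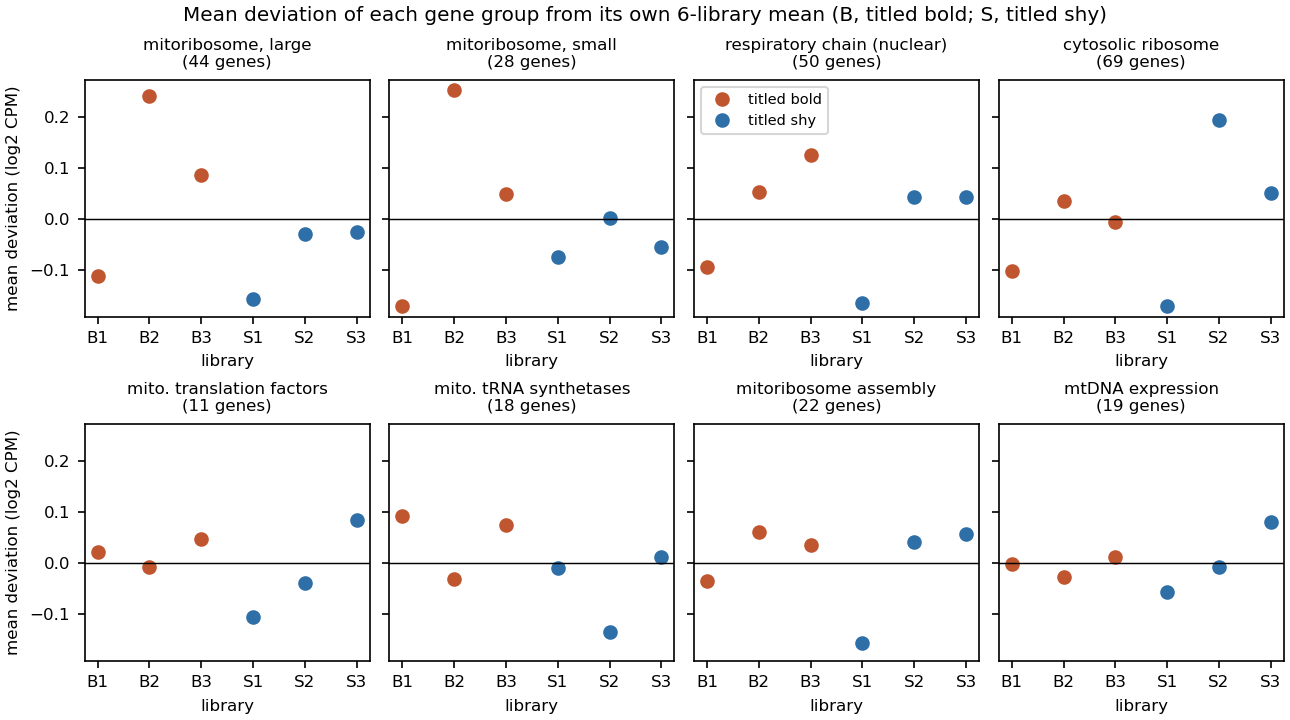
Points give, for 8 gene groups, the mean over tested genes of log2 CPM minus each gene's mean over the 6 libraries, with the libraries titled bold (B1 to B3, orange) left of those titled shy (S1 to S3, blue). Titled bold 2 is the highest library for both mitoribosomal subunits, at 0.24 and 0.25, while titled bold 3 is highest for the respiratory chain and titled shy 2 for the cytosolic ribosome.

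The order of libraries was set beside that of 2 related gene groups. Nuclear genes of the respiratory chain and ATP synthase, 50 in all, had mean deviations of -0.10, 0.05 and 0.12 in titled bold 1, 2 and 3, against -0.17, 0.04 and 0.04 in titled shy 1, 2 and 3, on the log2 CPM scale. The 69 tested genes of the cytosolic ribosome had -0.10, 0.03 and -0.01 in titled bold 1, 2 and 3, against -0.17, 0.19 and 0.05 in titled shy 1, 2 and 3. All 3 groups were low in titled bold 1 and titled shy 1. Summed member CPM relative to summed respiratory chain CPM was 0.232, 0.277 and 0.228 in titled bold 1, 2 and 3, against 0.250, 0.229 and 0.227 in titled shy 1, 2 and 3, and the groups overlapped. Relative to the cytosolic ribosome the ratio was 0.0421, 0.0498 and 0.0452 in titled bold 1, 2 and 3, against 0.0453, 0.0380 and 0.0406 in titled shy 1, 2 and 3, and the groups again overlapped. Of the respiratory chain genes 40 had a fold above 0 and 10 below, and of the cytosolic ribosome genes 29 lay above and 40 below. The respiratory chain genes with the smallest p were ndufb2 and atp5i, at log2 folds of 0.26 ± 0.10 and -0.39 ± 0.17. Those of the cytosolic ribosome were rpl38, at 150, 195 and 156 CPM in libraries titled bold 1, 2 and 3, against 221, 348 and 299 CPM in libraries titled shy 1, 2 and 3, and rps21, with log2 folds of -0.79 ± 0.18 and -0.71 ± 0.18 and edgeR adjusted p-values of 0.955. DESeq2 called rpl38, with an adjusted p of 0.0490.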

How the data were processed

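The authors deposited raw read counts per gene, 1 table per library, made from a stranded mRNA kit and 100-bp paired-end reads, per the labels' protocols. HTSeq (0.11.1), TopHat2 (2.0.11) and Trimmomatic (0.30) appear in the submitters' processing notes. Genome build, strand setting and the treatment of shared reads were not found in any label. Libraries were grouped by title. Genes passing filterByExpr (19755) were tested by edgeR's quasi-likelihood method (TMM, robust, two-sided), and p-values were adjusted by Benjamini-Hochberg over all of them. SEs are the log2 fold divided by the root of F. Values after ± are SDs over libraries for CPM and SEs for folds. Log2 CPM used a prior count of 2. The alternatives were other scalings and filters, DESeq2, limma-voom, a replicate block and leaving out libraries. Software was edgeR 4.0.16, DESeq2 1.42.0 and limma 3.58.1 under R 4.3.3, with figures in matplotlib 3.10.9 (Python 3.11.15).

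The members and lists were chosen with earlier results of these data known. Members are named by smallest p (10), largest and smallest SD (5 each) and names at odds with their subunit, and for other lists by the 2 smallest p-values. The groups by role, the members named only for a role, and those without overlap between groups were chosen after values were seen. A planned ranking by level per coding length and a promoter search were not run, since the sequences they need were not used here. LOC numbers were named through RefSeq gene numbers (11455 of 14730 matched). Chi-square per gene was at least 17.8 within groups and at least 14.4 between them, so no 2 libraries differed by counting error alone. Libraries prepared separately from the same RNA could also exceed counting error, so shared fish cannot be told from these values. The lowest values were 14.4 for titled bold 3 with titled shy 3 and 15.0 for titled bold 1 with titled shy 1. On data simulated for titled bold against titled shy (19755 genes, 3 sets, independent genes), the edgeR test recovered 58.0% of genes changed 2-fold and 91.7% of those changed 4-fold. The simulation took each gene's variability from its level alone and held no library that stood apart. The largest member fold, 0.60 on the log2 scale, was below 2-fold, so recovery at the folds of the members was not measured.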

Additional observations from a re-analysis of the deposited data

How the results depend on the processing

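Under every alternative run, 0 members were called, and the medians of both subunits stayed above 0. By scaling, the median log2 fold over all members lay between 0.08 with library totals and 0.13 with RLE factors. DESeq2 called 12 genes over the whole table, against 0 with edgeR, and none of them was a member. Members with an unadjusted p under 0.05 numbered 6 with the replicate block, where 5.87% of all tested genes passed, and 5 without both libraries numbered 1, where 6.88% passed, against 3 and 3.49% in edgeR with all libraries. Leaving out 1 library gave between 1 (without titled shy 2, where 3.11% passed) and 11 (without titled bold 1, where 12.0% of all tested genes passed). Leaving out 1 library, the median lay between 0.07 and 0.23 for the large subunit and between 0.03 and 0.20 for the small subunit, each lowest without titled bold 2 and highest without titled bold 1. The large to small ratio, as a log2 difference of titled bold minus titled shy, lay between 0.01 and 0.07, against 0.04.

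Same-numbered libraries deviated together with correlations of 0.316, 0.136 and 0.0798 over all genes, numbered 1, 2 and 3. Each library but titled shy 3 correlated best with the library of its own number. Titled shy 3 did so with titled bold 2, at 0.0843, against 0.0798 with titled bold 3. Over members the same-numbered correlations were 0.0277, -0.306 and -0.0169. The labels do not say that the numbers pair the libraries, so the main fit did not use them. The replicate block gave 1160 genes at an unadjusted p under 0.05, against 690, and called 0.

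Of 42 genes followed, 10 changed sign under some alternative and the causes were not tested. Without both libraries numbered 1 the log2 folds were 0.0116 for mrpl24, 0.17 for mrpl21, 0.19 for mrps28, -0.0677 for ptcd3 and 0.13 for LOC109639497 (mrps34). With library totals they were -0.0092 for aurkaip1 and -0.0022 for chchd1. Leaving out 1 library, the folds ranged between -0.11 and 0.0074 for mrpl24, -0.80 and 0.32 for mrpl21, -0.54 and 0.23 for mrps28, -0.038 and 0.17 for mrps30, -0.017 and 0.081 for aurkaip1, -0.041 and 0.11 for chchd1, -0.39 and 0.095 for gadd45gip1, -0.035 and 0.15 for ptcd3, -0.22 and 0.10 for LOC109639497 and -0.12 and 0.24 for LOC109648251 (mrpl2).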
